A study of Mus musculus with 18 samples.

Results

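Libraries 7 to 9 of untreated cells were set against libraries 1 to 3 of untreated cells, over all genes of the deposited count table. These are 6 of the series' 18 samples, 3 in each set, and 10316 genes had enough counts to be compared. The sets by replicate number were chosen on measured values: earlier results on these same libraries had shown that libraries group by number. Every difference between the sets is therefore given as a description and none as a test. Untreated libraries 4 to 6 and the 9 dDAVP libraries make up the rest of the series. The cells are mpkCCD11, an immortalised mouse line of the cortical collecting duct with features of principal cells. They were grown on permeable supports until they formed a tight layer, kept without serum for 24 h, and then kept for another 24 h without hormone (control). The dDAVP libraries set beside them below had the V2 receptor agonist dDAVP at 0.1 nM in those last 24 h. All cells are of 1 line, and nothing in the labels says that replicates came from separate cultures. The labels describe 2 ways of making libraries, a low-input amplification kit (Ovation SP Ultralow) and a protocol written for single cells, without saying which library had which. The library protocol, the cells and the date of culture may differ between the sets, and these cannot be told apart here.

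Principal cells reabsorb water through aquaporin-2, placed in the apical membrane by vasopressin acting on the V2 receptor, and sodium through the epithelial sodium channel. The sodium pump on the basolateral side drives the sodium path. Tight junctions, with claudins as their seal, adherens junctions and desmosomes hold the cells in a sheet. Immediate early genes are switched on within minutes of a stimulus, need no new protein for it, and encode short-lived mRNAs, many of them for transcription factors of the AP-1 and Egr families.

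The sets differed in depth and make-up. Total counts, in units of 1e6, were 23.4 to 27.7 in libraries 1 to 3 against 41.4 to 78.6 in libraries 7 to 9, and CPM are counts per 1e6 counts. Scaled like the CPM given below, 3 counts, the most a count of 0 allows, came to 0.148 to 0.201 CPM in libraries 1 to 3 and 0.0306 to 0.0449 CPM in libraries 7 to 9. Of all counts, 23.3 to 28.8% fell on ribosomal protein genes in the first set, libraries 1 to 3, against 14.1 to 16.1% in the other. Rn45s, the precursor of ribosomal RNA, held 0.0036 to 0.0047% in the first set against 0.784 to 3.04%. Libraries 7 to 9 also differed more among themselves: their common biological coefficient of variation was 0.759, against 0.224 in libraries 1 to 3. A count of 0 in another library of the set was found for 406 of the 10403 genes that reached 100 counts in one of libraries 7 to 9, and for 0 of 5759 such genes in libraries 1 to 3. Correlations of log2 CPM across genes, which are not independent replicates, were 0.977 to 0.989 within libraries 1 to 3 and 0.759 to 0.858 within libraries 7 to 9. Between the sets they were 0.484 to 0.817. The ranges within a set used genes with enough counts in that set and its own scaling. The range between sets used the genes and scaling of the 6 libraries together, so it is only roughly comparable. The parts of these library differences in the gene results below were not tested, except where a value is given.

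Normalised CPM below are scaled to the effective library size, and log2 fold changes are libraries 7 to 9 minus libraries 1 to 3. By edgeR, 3403 of 10316 genes (33.0%) were called higher at an adjusted p under 0.05 and 1930 (18.7%) were called lower. By a second count, of genes whose 3 values in one set all lay above the 3 in the other with at least a 2-fold change, 3624 genes (35.1%) were higher and 2639 (25.6%) lower. Since the sets were chosen on these values, the counts are read only as the background for the gene groups. The median log2 fold change of all genes was 0.51. Relative to the main scaling, library totals alone would move the typical gene up by 1.06, totals without the most abundant genes by 0.81, and DESeq2's size factors would move it by -0.20. A gene at 0.51 therefore differed as the typical gene did. Of the genes named below that were called, all kept their sign under these 3 scalings. Higher calls made up 63.8% of all calls in the main scaling, 87.5% with library totals alone and 49.7% after an offset for GC content described next.

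The difference followed the GC content of the transcript. In 5 bins of about 2046 genes each, from the lowest GC (31.2 to 44.8%) to the highest (56.5 to 78.6%), the median log2 fold change was -1.40, -0.64, 0.25, 1.51 and 3.55. Of the genes in the lowest bin, 4.54% were called higher and 37.1% lower, and in the highest bin 81.3% were called higher and 1.17% lower. GC content and log2 fold change had a Pearson correlation of 0.633 over 10231 genes, across genes that share the same 6 libraries, and the correlation with length was -0.051. The mean GC of counted transcripts was 50.3 to 50.6% in libraries 1 to 3, against 53.3 to 56.1% in libraries 7 to 9. The bins of the dDAVP libraries ran the same way, from a median of -1.67 to 2.84. An offset that takes out each library's GC trend was added after seeing the data. By its construction the bin medians become nearly flat, and they lay between 0.11 and 0.31. With it 2220 genes were called higher and 2250 lower, 109 of them opposite to the fit without it. The offset also takes out any difference in expression that goes with GC content. Values with it are thus a second view and not corrected values. GC content or GC-offset values therefore stand beside the gene groups below, though not for every gene. List counts with the offset are to be read against the 2220 and 2250 of 10231 genes. The difference also went with level. In 5 bins of mean CPM over both sets, the lowest (0.157 to 2.355 CPM) had a median of 0.90 and the highest (from 57.9 CPM) -0.78. Called lower were 4.99% of genes in the lowest level bin and 42.6% in the highest, and called higher 28.7% and 27.1%. The lists below are set against all genes, not against genes of like level.

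**Figure D1:**
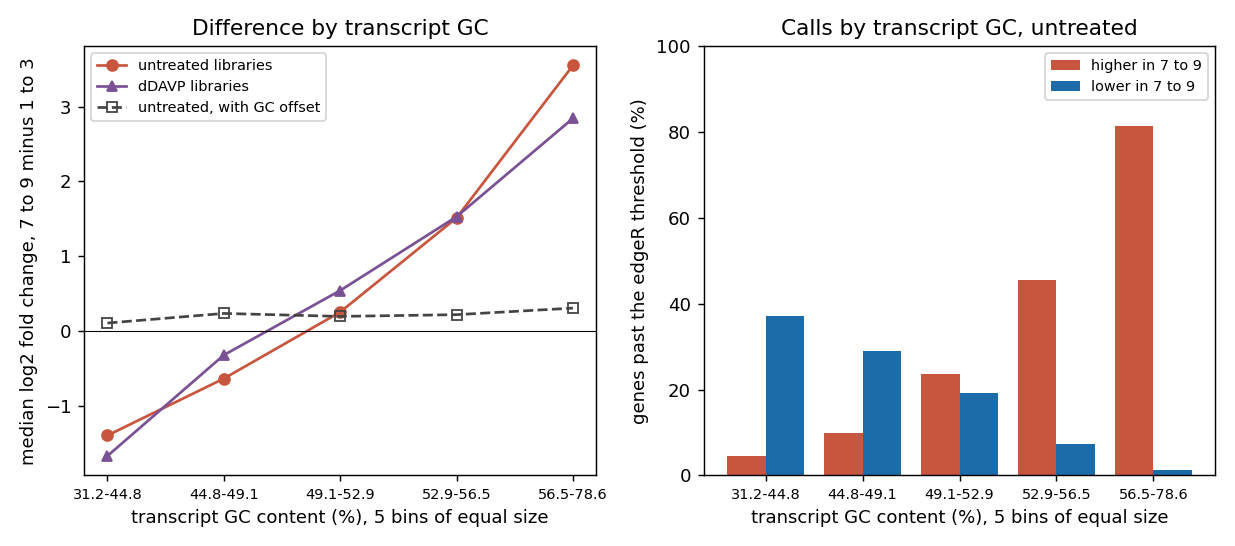
Left, the median log2 fold change (libraries 7 to 9 minus 1 to 3) in 5 equal bins of transcript GC content, for untreated libraries, for dDAVP libraries and for untreated libraries with a GC offset; right, the percentage of genes in each bin called higher or lower by edgeR. Medians rise from -1.40 in the lowest bin to 3.55 in the highest. With the offset, which is built to flatten this trend, they lie between 0.11 and 0.31.

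Of 50 genes of water and sodium transport, 32 had enough counts, 8 of them were called higher in libraries 7 to 9 and 6 lower. These are shares close to those of all genes, 33.0% called higher and 18.7% lower. The list had a median log2 fold change of 0.77 against 0.51 for all genes. After the GC offset 2 were called higher and 13 lower, with a median of -0.07 where that of all genes was 0.21.

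Aqp2, the water channel that vasopressin controls (chromosome 15, 99579055 to 99584547, GRCm38, transcript GC 63.2%), had 22.5, 25.1 and 30.7 CPM in libraries 1 to 3 against 11.7, 39.9 and 268 CPM in libraries 7 to 9. Library 9 alone lay far above the rest, library 7 lay below libraries 1 to 3, and the sets overlapped. Its log2 fold change was 2.03 (SE 0.91), not called, and -0.15 without library 9. With the GC offset Aqp2 was at -3.46 (SE 0.66), called lower, and the sets no longer overlapped. Aqp5, a water channel of secretory epithelia, had 1.14, 1.66 and 2.37 CPM in libraries 1 to 3 against 5.53, 43.8 and 5.29 CPM in libraries 7 to 9, a log2 fold change of 3.39 (SE 0.90), with all 3 libraries above the other set. Without library 8, the highest, Aqp5 was at 1.64, and with the GC offset it turned to -0.45. Aqp3, the basolateral water channel of principal cells, had too few counts to compare (0 to 0.114 CPM in libraries 1 to 3, 0 to 0.621 CPM in libraries 7 to 9), and Aqp4 had 0 counts in all 6. Avpr2, the V2 receptor, had 33.0, 36.3 and 45.3 CPM in libraries 1 to 3 against 25.6, 69.3 and 21.5 CPM in libraries 7 to 9, and its log2 fold change of 0.02 (SE 0.60) was near 0. The offset moved Avpr2 to -1.54, called lower.

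Of the 3 subunits of the epithelial sodium channel, 2 had enough counts and both were called higher, against 33.0% of all genes. With the GC offset neither was called. Scnn1a, the alpha subunit that forms the pore with the other 2 (chromosome 6, 125320659 to 125344943), had 21.4, 16.8 and 24.6 CPM in libraries 1 to 3 against 54.4, 109.7 and 63.9 CPM in libraries 7 to 9, a log2 fold change of 1.86 (SE 0.56). Every value in libraries 7 to 9 was above every value in libraries 1 to 3, but the GC offset turned the direction, to -0.28. Scnn1b, the beta subunit, had 0.403, 0.515 and 0.594 CPM in libraries 1 to 3 against 1.69, 0.265 and 14.4 CPM in libraries 7 to 9. It was called higher (3.42, SE 1.18) although library 8 lay below libraries 1 to 3, and was at 0.81 without library 9 and 2.13 with the GC offset, not called in either. Scnn1g, the gamma subunit, had 0.403, 0.915 and 1.04 CPM in libraries 1 to 3 against 0, 0.0204 and 0.0150 CPM in libraries 7 to 9 and was not among the genes with enough counts. Its 3 counts in libraries 7 to 9 stood against 43 in libraries 1 to 3.

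Of the 9 regulators of the channel with enough counts, 2 were called lower and 0 higher, against 18.7% and 33.0% of all genes. Nedd4, a ubiquitin ligase of the family that marks the sodium channel for removal (chromosome 9, 72662346 to 72749852), had 1393, 1915 and 1509 CPM in libraries 1 to 3 against 117, 15.6 and 62.7 CPM in libraries 7 to 9, a log2 fold change of -4.62 (SE 0.75). Nedd4l, its relative best known for that role, had 25.6, 27.7 and 26.9 CPM in libraries 1 to 3 against 26.7, 27.8 and 38.5 CPM in libraries 7 to 9 and was not called (0.21, SE 0.51). Wnk1, a kinase that regulates sodium and chloride transporters, was lower (-4.02, SE 0.87), at 287 to 338 CPM in libraries 1 to 3 and 3.68 to 44.9 CPM in libraries 7 to 9. Hsd11b2, which inactivates glucocorticoids so that aldosterone can act, was -1.26 (SE 0.61) and Sgk1, a kinase induced by aldosterone, -0.53 (SE 0.73). Neither was called. The GC offset gave 2 regulators called higher and 4 lower: Nedd4 and Wnk1 stayed lower (-3.71 and -3.81), Hsd11b2 was called lower at -3.62 and Nedd4l higher at 1.43.

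Of the 6 sodium pump genes, 4 were called lower and 1 higher, against 18.7% and 33.0% of all genes. In the highest level bin, to which Atp1b1 belongs, 42.6% of genes were called lower. Atp1b1, the beta subunit that carries the pump to the membrane (chromosome 1, 164437109 to 164458355), had 1346, 1328 and 1507 CPM in libraries 1 to 3 against 96.2, 23.2 and 81.1 CPM in libraries 7 to 9, a log2 fold change of -4.38 (SE 0.66) and thus 20.9-fold lower. The lowest of libraries 1 to 3 was above the highest of libraries 7 to 9. Atp1b3, another beta subunit, was at -2.11 (SE 0.58), and Fxyd4, a regulator of the pump in the collecting duct, at -2.98 (SE 0.64). Fxyd2, the gamma subunit, had 34.8, 67.2 and 64.1 CPM in libraries 1 to 3 against 22.04, 164 and 143 CPM in libraries 7 to 9, overlapping sets, and Fxyd5, a further regulator, was called higher (3.32, SE 0.84) at under 3 CPM. With the GC offset Fxyd5 was not called and Atp1b1, Atp1b3 and Fxyd4 were at -4.06, -1.40 and -3.24. Fxyd2 was then called lower, at -1.46 (SE 0.52), with sets that did not overlap.

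Of the 9 chloride and cation transporter genes with enough counts, 4 were called higher and 0 lower, against 33.0% and 18.7% of all genes, and 0 were called higher and 2 lower with the GC offset. Bsnd (barttin), a subunit of kidney chloride channels, had 1.07, 1.03 and 0.841 CPM in libraries 1 to 3 against 3.81, 7.75 and 5.71 CPM in libraries 7 to 9, a log2 fold change of 2.55 (SE 0.66), with no overlap between the sets. Trpv4, a calcium channel opened by cell swelling, had 117, 104 and 118 CPM in libraries 1 to 3 against 109, 1034 and 473 CPM in libraries 7 to 9, so library 7 lay inside the range of libraries 1 to 3. Its log2 fold change was 2.25 (SE 0.72), and 1.37 without library 8, not called. Neither Bsnd (0.78) nor Trpv4 was called higher with the GC offset, and Trpv4 was then called lower at -1.24. Of the potassium channel genes Kcnk1, a tandem-pore channel, had 187, 237 and 288 CPM in libraries 1 to 3 against 157, 297 and 722 CPM in libraries 7 to 9 and was not called (0.72, SE 0.61). Kcnj16, a subunit of the basolateral inward rectifier, was at 0.82 (SE 0.98), and Kcnj1 (ROMK, the apical channel) and Kcnj10 had under 2 CPM in every library.

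**Figure D2:**
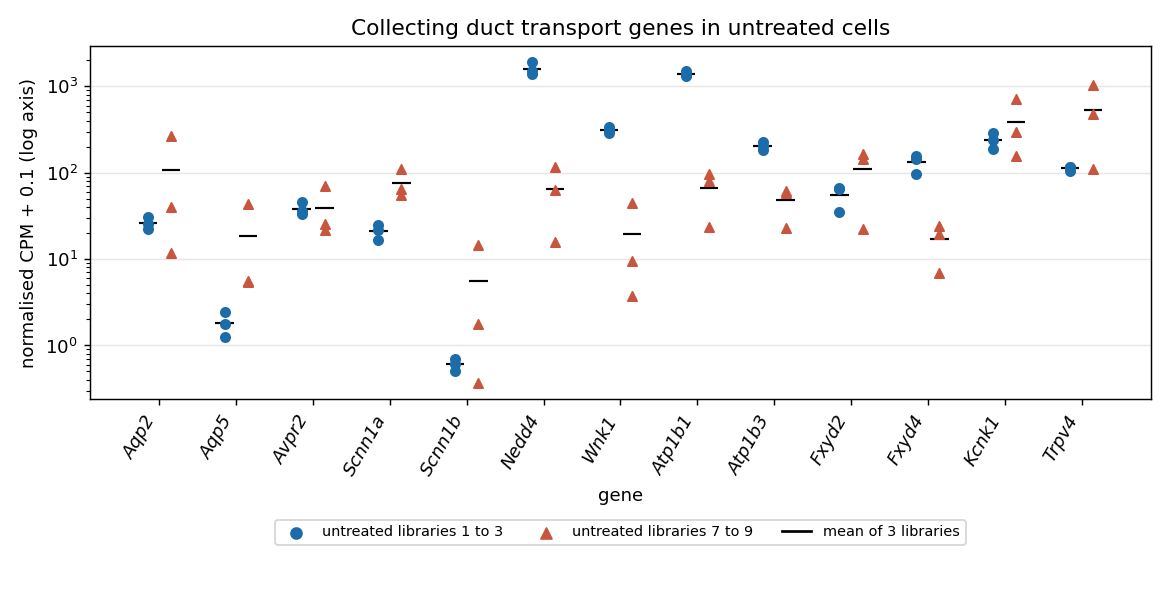
Normalised CPM + 0.1 on a log axis for 13 transport genes in untreated libraries 1 to 3 (circles) and 7 to 9 (triangles), with the mean of each set as a bar. Atp1b1, Nedd4 and Wnk1 are lower in all of libraries 7 to 9, whereas Aqp2 and Avpr2 overlap.

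Transcription factors that mark collecting duct identity were split. Of 20 genes, 17 had enough counts, 5 were called higher and 6 lower, against 33.0% and 18.7% of all genes. Their median log2 fold change was 0.34 against 0.51 for all genes. Gata3, which maintains the ureteric bud lineage (chromosome 2, 9857078 to 9890034), had 9.67, 10.8 and 11.8 CPM in libraries 1 to 3 against 37.6, 123 and 90.6 CPM in libraries 7 to 9, a log2 fold change of 2.96 (SE 0.62), and its relative Gata2 was 4.24 (SE 1.00). Pax2, another factor of the nephric lineage, was 3.82 (SE 0.78). Lower were Tfcp2l1, a factor of collecting duct maturation, at 42.6 to 53.8 and 5.36 to 15.8 CPM (-2.38, SE 0.61), Pax8 (-1.85, SE 0.60), Emx2 (-2.71, SE 0.65) and Elf3 (-2.05, SE 0.63). With the GC offset 2 were called higher, among them Gata3 (3.33), and 5 lower, among them Tfcp2l1, Pax8, Emx2 and Elf3. Gata2 (1.96) and Pax2 (0.43) were then not called.

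Both sets carried principal cell and epithelial markers. Krt8 and Krt18, the keratin pair of simple epithelia, had 1271 to 1663 and 7768 to 13698 CPM in libraries 1 to 3 and 1017 to 5136 and 2706 to 3905 CPM in libraries 7 to 9. Epcam, an epithelial adhesion protein, had 249.1, 373 and 221 CPM in libraries 1 to 3 against 54.4, 38.6 and 65.6 CPM in libraries 7 to 9. Of the principal cell markers, Avpr2, Aqp2, Scnn1a, Gata3, Fxyd4 and Tfcp2l1 had counts in every library, while Aqp3 and Scnn1g were near 0 in libraries 7 to 9 and Aqp3 also in libraries 1 to 3. Markers of some other cell types summed to little. The 8 fibroblast markers had 0 CPM in libraries 1 to 3 and at most 1.15 in libraries 7 to 9. The 9 of the thick limb and distal tubule had at most 0.247 and 1.98. The 12 proximal tubule markers summed to 7.59 to 9.15 and 3.55 to 6.97 CPM, and the 6 podocyte markers to 8.64 to 11.9 and 15.1 to 19.4. The 8 immune markers summed to 2.86 to 6.31 and 10.6 to 34.1 CPM, through 2 genes with counts. Of these Csf1r was called higher (3.39, SE 0.72), and at 2.27 with the GC offset. The 7 endothelial markers summed to 5.09 to 6.58 and 13.1 to 88.8 CPM, almost all of it Egfl7. Egfl7 was called higher (2.76, SE 0.78), but was at -0.39 and not called with the GC offset. In libraries 7 to 9 the immune and endothelial sums overlapped the range of the principal cell marker Avpr2, 21.5 to 69.3 CPM. Of the 18 intercalated cell genes, 7 had enough counts, 1 was called higher and 1 lower, against 33.0% and 18.7% of all genes. Foxi1, the factor that defines that cell type, had 1 count over all 6 libraries. In bulk libraries fewer cells of a type and less RNA per cell cannot be told apart. The part of other cells in the differences was not tested.

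Of 8 claudin genes with enough counts, 3 were called higher in libraries 7 to 9 and 1 lower, against 33.0% and 18.7% of all genes. With the GC offset 2 (Cldn12 and Cldn23) were called higher and 4 (Cldn3, Cldn7, Cldn8 and Cldn9) lower. The first 120 coding bases of 3 of them are shown because the genes encode the same kind of protein at different GC content. Capitals mark G and C, the letters that make up 65.0% of the Cldn3 stretch (chr5:134986445-134986564, plus strand), 60.8% of the Cldn4 stretch (chr5:134946626-134946745, minus strand) and 52.5% of the Cldn8 stretch (chr16:88562916-88563035, minus strand). They were read from GENCODE M21 on GRCm38.
Cldn3: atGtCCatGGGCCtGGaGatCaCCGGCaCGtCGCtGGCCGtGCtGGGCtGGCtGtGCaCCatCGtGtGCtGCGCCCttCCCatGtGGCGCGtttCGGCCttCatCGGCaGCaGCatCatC
Cldn4: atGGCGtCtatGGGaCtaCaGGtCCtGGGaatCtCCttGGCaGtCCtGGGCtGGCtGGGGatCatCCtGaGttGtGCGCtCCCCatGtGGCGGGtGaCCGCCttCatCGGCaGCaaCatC
Cldn8: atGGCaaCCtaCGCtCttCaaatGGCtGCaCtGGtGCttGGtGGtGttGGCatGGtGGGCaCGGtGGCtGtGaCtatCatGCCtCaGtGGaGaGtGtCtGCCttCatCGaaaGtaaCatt
Over the whole transcript nearest to the gene length behind the FPKM values, GC content was 62.7% for Cldn3, 56.8% for Cldn4 and 40.6% for Cldn8.

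Cldn3 had 343, 246 and 351 CPM in libraries 1 to 3 against 590.1, 3381 and 5233 CPM in libraries 7 to 9, a log2 fold change of 3.29 (SE 0.72), with libraries 8 and 9 far above library 7. Cldn4, which lies next to it on chromosome 5 and forms part of the collecting duct's paracellular chloride path, had 133, 111 and 134 CPM in libraries 1 to 3 against 181, 826 and 226 CPM in libraries 7 to 9, a log2 fold change of 1.71 (SE 0.65). Both turned lower with the GC offset, to -1.74 and -0.73. Without library 8, Cldn4 was at 0.70 and not called, and without library 9 Cldn3 was at 2.54. Cldn8, which works with Cldn4 in that path, had 355, 479 and 372 CPM in libraries 1 to 3 against 10.6, 3.12 and 4.04 CPM in libraries 7 to 9, a log2 fold change of -6.08 (SE 0.73) or 67.7-fold lower, and was at -4.33 with the offset. No value of Cldn8 in libraries 7 to 9 came near libraries 1 to 3. Cldn7 had 278, 283 and 279 CPM in libraries 1 to 3 against 223, 906 and 555 CPM in libraries 7 to 9 and was not called (1.00, SE 0.58), but was called lower with the offset, at -1.47. Cldn23, a little studied claudin, was called higher at 5.77 (SE 1.03) from 0.297 to 0.537 CPM. Cldn1 had 10 counts in all of libraries 7 to 9 and 0 in libraries 1 to 3.

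Of all 38 tight junction genes, 30 had enough counts, 8 were called higher and 6 lower, against 33.0% and 18.7% of all genes. Their median log2 fold change of 0.15 lay below the 0.51 of all genes. The GC offset gave 6 higher and 10 lower, with a median of -0.65. With a stricter filter on low counts or with the FPKM values the median stood 0.11 above that of all genes in each. The first covers fewer genes and the second is on another scale. The zonula occludens scaffolds that tie claudins to actin differed from one another. Tjp1 (ZO-1) had 25.3, 59.7 and 19.2 CPM in libraries 1 to 3 against 11.1, 0.927 and 3.43 CPM in libraries 7 to 9, a log2 fold change of -2.75 (SE 0.86). Tjp3 (ZO-3) had 7.32, 4.06 and 8.31 CPM in libraries 1 to 3 against 66.7, 150.1 and 352 CPM in libraries 7 to 9, a log2 fold change of 4.85 (SE 0.77). Thus ZO-1 was lower in all 3 libraries and ZO-3 higher in all 3, while the GC content of their transcripts was 46.8 and 60.7%. With the offset they were at -2.09 and 0.86, the second no longer called. Of the membrane proteins, Ocln (occludin) had 1.68, 5.03 and 2.82 CPM in libraries 1 to 3 against 1.27, 0.428 and 1.72 CPM in libraries 7 to 9 and was not called (-1.48, SE 0.76), Marveld3, of the occludin family, was 3.04 (SE 0.69), and F11r (JAM-A) -1.91 (SE 0.60). Cxadr, the coxsackievirus and adenovirus receptor of the junction, was lower, at -3.65 (SE 0.80).

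Adherens junction genes were mostly lower. Of 11 with enough counts, 7 were called lower and 2 higher, against 18.7% and 33.0% of all genes. In the highest level bin, to which Cdh1 and Ctnnb1 belong, 42.6% of genes were called lower. Cdh1 (E-cadherin, chromosome 8, 106603351 to 106670246) had 2553, 2825 and 2460.1 CPM in libraries 1 to 3 against 169, 48.1 and 88.6 CPM in libraries 7 to 9, a log2 fold change of -4.68 (SE 0.63) and 25.6-fold lower. Some of its cytoplasmic partners went the same way, whereas Jup, given below, did not without the GC offset. Ctnnb1 (beta-catenin) had 1867, 1892 and 1968 CPM in libraries 1 to 3 against 167, 88.3 and 152 CPM in libraries 7 to 9 (-3.81, SE 0.54). Ctnna1 (alpha-catenin) was at -4.07 (SE 0.57) and Vcl (vinculin), which links it to actin, at -4.56 (SE 0.67). The values of these 4 genes did not overlap between sets, and with the GC offset they were at -4.67, -3.56, -3.72 and -4.11. Jup (plakoglobin), which sits in both adherens junctions and desmosomes, had 141, 133 and 156 CPM in libraries 1 to 3 against 164, 988 and 519.8 CPM in libraries 7 to 9 and was called higher (1.96, SE 0.65), but lower with the GC offset (-1.37). Without library 8 Jup was at 1.25 and not called. Cdh16 (kidney-specific cadherin) had 1114, 1260.0 and 1499 CPM in libraries 1 to 3 against 301, 1167 and 254 CPM in libraries 7 to 9. Library 8 lay within the range of libraries 1 to 3, and the gene was not called (-1.17, SE 0.63). With the GC offset Cdh16 was called lower, at -3.27 (SE 0.46), and the sets did not overlap.

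Desmosome genes were divided. Dsp (desmoplakin) had 1596, 1599 and 1893 CPM in libraries 1 to 3 against 133, 117 and 58.7 CPM in libraries 7 to 9, a log2 fold change of -4.05 (SE 0.57). The desmosomal cadherin Dsg2 was -1.64 (SE 0.59) and the plakophilin Pkp4 -2.18 (SE 0.54). In contrast Pkp3, another plakophilin, had 4.36, 2.23 and 3.96 CPM in libraries 1 to 3 against 24.8, 161 and 60.4 CPM in libraries 7 to 9, and Evpl (envoplakin) was higher at 5.04 (SE 0.96). After the offset Pkp3 (0.72) and Evpl (0.59) were not called. The gap junction gene Gjb1 was called higher, at 3.63 (SE 0.68), and Dsg2 was not called with the offset. Over the 23 adherens, desmosome and gap junction genes with enough counts, of 30, 6 were called higher and 11 lower. These stand against 33.0% and 18.7% of all genes, and the median log2 fold change was -1.17. That median was -0.20 with library totals, where that of all genes was 1.60.

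**Figure D3:**
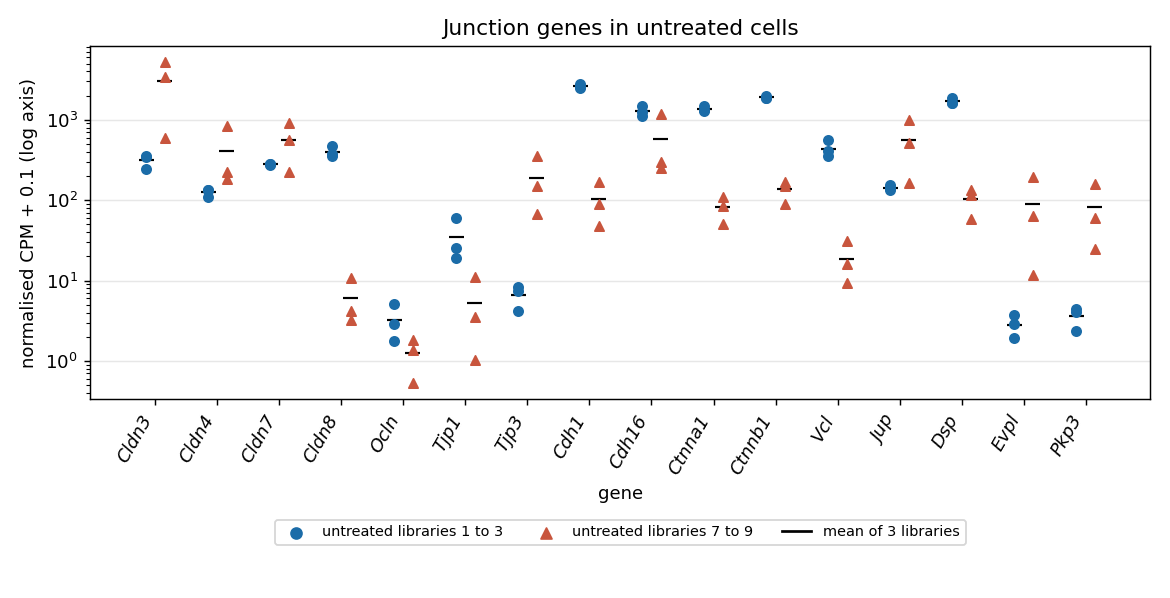
Normalised CPM + 0.1 on a log axis for 16 junction genes in untreated libraries 1 to 3 (circles) and 7 to 9 (triangles), with set means as bars. Cldn8, Cdh1, Ctnna1, Ctnnb1, Vcl and Dsp lie lower in libraries 7 to 9, and Cldn3, Tjp3, Evpl and Pkp3 higher.

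Of 45 immediate early genes, 42 had enough counts, and 23 of them were called higher in libraries 7 to 9, Fos and Egr1 not among them. Of them 0 were called lower, against 18.7% of all genes, and the higher calls stand against 33.0% of all genes called higher. By the count of non-overlapping sets with a 2-fold change, 27 were higher and 1 (Klf10, a target of TGF-beta) lower, against 35.1% and 25.6% of all genes. Their median log2 fold change was 2.86. With the GC offset the median was 1.54, and 17 were called higher and 1 lower. Without the offset the median stood 2.35 above that of all genes, 1.50 with a stricter filter on low counts and 0.88 with the FPKM values. These 3 values are not of like measure. The stricter filter leaves out genes near 0 in libraries 1 to 3, such as Fosl1 and Klf4. The FPKM values were logged after adding a constant, which shrinks the changes of low genes, and were not scaled further.

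Within the AP-1 family Jun, Junb, Jund and Fosl1 were called higher and Fos was not. Junb (chromosome 8, 84974484 to 84978718, transcript GC 62.6%) had 2.89, 1.49 and 2.03 CPM in libraries 1 to 3 against 236, 244 and 1788 CPM in libraries 7 to 9, a log2 fold change of 8.47 (SE 1.05). Jund had 19.1, 24.0 and 26.6 CPM in libraries 1 to 3 against 1096, 426 and 2983 CPM in libraries 7 to 9, a log2 fold change of 6.01 (SE 0.81). Library 9 was the highest for both, and no values overlapped. Jun, the founding member, was at 3.34 (SE 0.74). Without library 9, Junb, Jund and Jun were at 6.68, 4.90 and 2.08. With the GC offset Junb was at 3.64, still called, Jun at 1.79, not called, and Jund turned to -0.08. Fosl1, a Fos relative that comes up later than Fos, had 0.201, 0 and 0.0989 CPM in libraries 1 to 3 against 6.41, 23.2 and 53.7 CPM in libraries 7 to 9, a log2 fold change of 8.13 (SE 1.16) that held with the offset (5.10). Fos itself (chromosome 12, 85473890 to 85477273, GC 51.9%) had 4.36, 5.03 and 6.58 CPM in libraries 1 to 3 against 1.64, 7.81 and 6.21 CPM in libraries 7 to 9, a log2 fold change of -0.03 (SE 0.67), with overlapping sets. Atf3, a stress-induced partner of Jun proteins, had 2.69, 2.80 and 4.25 CPM in libraries 1 to 3 against 23.5, 17.2 and 15.5 CPM in libraries 7 to 9 and was called higher at 2.52 (SE 0.59), and at 2.14 with the offset.

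Egr1, an early growth response zinc finger factor, had 48.1, 33.2 and 37.9 CPM in libraries 1 to 3 against 30.8, 58.5 and 49.6 CPM in libraries 7 to 9 and was not called (0.22, SE 0.53), while its relative Egr2 was higher by 3.52 (SE 0.78) from under 1 CPM. Klf4, a Krüppel-like factor, had 0.0671, 0 and 0.247 CPM in libraries 1 to 3 against 0.608, 3.15 and 67.9 CPM in libraries 7 to 9, a log2 fold change of 7.73 (SE 1.75), and 3.96 without library 9. Ier2, an immediate early response gene, had 18.9, 16.4 and 22.7 CPM in libraries 1 to 3 against 836, 692 and 2359 CPM in libraries 7 to 9, a log2 fold change of 6.07 (SE 0.72) and 2.26 with the offset. Ier3, of the same naming but no close relative, had 50.4, 33.8 and 40.2 CPM in libraries 1 to 3 against 27.8, 125 and 206 CPM in libraries 7 to 9 and was not called, nor was Myc (0.60, SE 0.59). Among the brakes on signalling, Dusp1, a phosphatase that switches off MAP kinases, had 4.77, 2.75 and 2.37 CPM in libraries 1 to 3 against 42.9, 13.0 and 34.8 CPM in libraries 7 to 9, a log2 fold change of 3.20 (SE 0.67). Gadd45b (4.36, SE 0.70), the small GTPase Rhob (3.97, SE 0.76), Arc (5.41, SE 0.82) and the kinase Plk3 (5.73, SE 0.87) were higher too, and all 5 remained called with the offset. Of the 6 secreted genes 1 was called higher, Ctgf at 5.54 (SE 0.93), against 33.0% of all genes. Its relative Cyr61 was at 1.18 (SE 0.59).

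**Figure D4:**
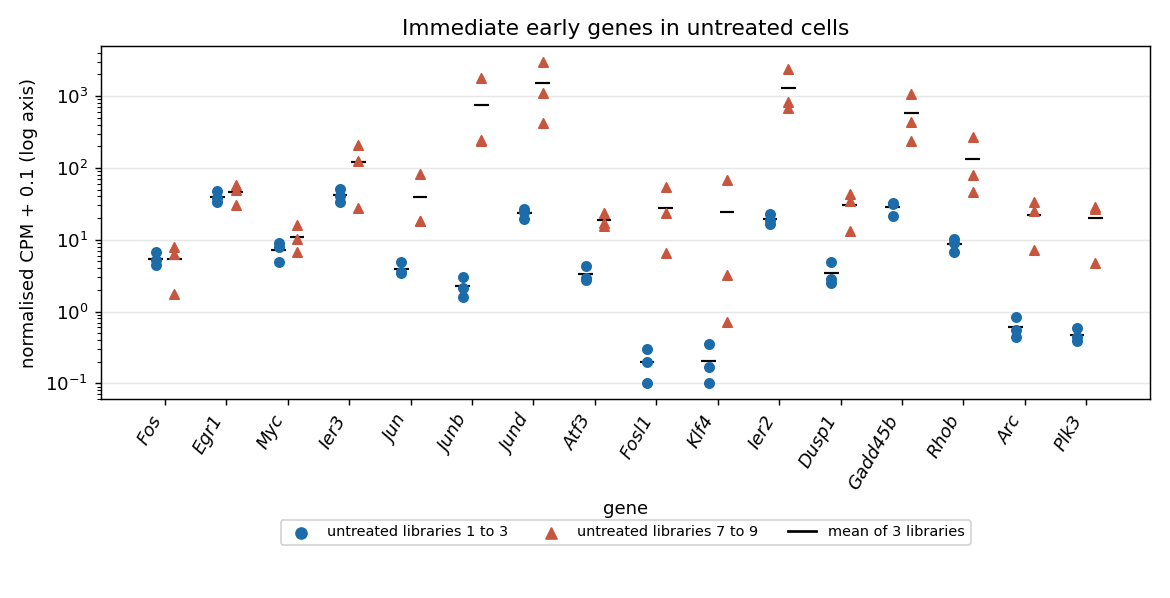
Normalised CPM + 0.1 on a log axis for 16 immediate early genes in untreated libraries 1 to 3 (circles) and 7 to 9 (triangles), with set means as bars. Junb, Jund, Ier2 and Fosl1 are higher in each of libraries 7 to 9, and Fos and Egr1 overlap.

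The promoters of Fos and Junb are shown because the 2 genes belong to 1 family and Junb alone of them was called. The 250 bases before the start in RefSeq on GRCm38.p6 are given for Fos (chr12:85473640-85473889, plus strand) and Junb (chr8:84978749-84978998, minus strand). Capitals mark TGACG, the core of the cAMP response element, and the TATA box.
Fos: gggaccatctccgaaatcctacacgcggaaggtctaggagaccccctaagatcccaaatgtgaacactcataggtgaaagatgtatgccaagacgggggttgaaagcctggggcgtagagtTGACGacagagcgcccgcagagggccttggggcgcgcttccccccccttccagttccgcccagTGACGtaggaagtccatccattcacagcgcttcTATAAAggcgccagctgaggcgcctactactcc
Junb: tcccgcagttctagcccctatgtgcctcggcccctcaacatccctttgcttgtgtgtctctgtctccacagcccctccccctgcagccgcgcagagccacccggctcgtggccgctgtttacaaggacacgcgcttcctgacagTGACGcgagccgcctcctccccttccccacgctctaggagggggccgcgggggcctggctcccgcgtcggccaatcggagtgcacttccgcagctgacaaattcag
Searched on both strands, TGACG was in 17.8% of 32851 promoters of this length, TATAAA in 12.4% and the full element TGACGTCA in 1.55%. The core was in the promoters of Fos, Junb, Atf3 and Dusp1, and the full one, which includes the core, in that of Dusp1. The AP-1 site TGACTCA (4.46% of promoters) and the CArG box, to which serum response factor binds (1.47%), were in none of the 8 promoters searched, those of Fos, Jun, Junb, Jund, Atf3, Ier3, Dusp1 and Gadd45b. These are matches of letters in 1 window, with no measurement of binding.

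The counts of the remaining lists are to be read against the 33.0% of all genes called higher and the 18.7% called lower. In the highest level bin, to which Atp5c1, Hspa8 and Ldha belong, 42.6% of genes were called lower. Counts of these lists with the GC offset are to be read against 2220 higher and 2250 lower of 10231 genes. Of 80 ribosomal protein genes, 57 were called lower and 2 higher (median log2 fold change -2.38, and -2.52 with the GC offset). Reads of these genes can also fall on their near-identical pseudogene copies. Nuclear genes of the mitochondrial respiratory chain were called lower in 18 of 24 (median -2.02, and 20 lower at -2.13 with the GC offset), such as Atp5c1 of the ATP synthase, with 3861, 3444 and 3422 CPM in libraries 1 to 3 against 159, 60.4 and 105 CPM in libraries 7 to 9. Replication-dependent histone genes, whose mRNAs end in a stem-loop and carry no poly(A) tail, held 0.0015 to 0.0031% of all counts in libraries 1 to 3 against 0.036 to 0.116% in libraries 7 to 9. Of 68 such genes 23 had enough counts, and 8 of the 23 had 0 counts in libraries 1 to 3. Of 7 nuclear or non-polyadenylated RNA genes with enough counts, 1 was called higher and 3 lower, with a median of -0.01. Neat1, a long nuclear RNA, had 2315, 1726 and 2161 CPM in libraries 1 to 3 against 95.1, 54.5 and 20.8 CPM in libraries 7 to 9. With the GC offset 2 of 6 of these genes were higher, Malat1 (1.72) and Kcnq1ot1 (1.865), and 2 lower, Neat1 (-5.34) among them. Of 34 cell cycle genes 13 were called lower and 5 higher: Mki67 was at -3.28 (SE 0.73) and Plk1, a mitotic kinase, at 3.72 (SE 0.69). The GC offset gave 14 lower and 3 higher, with Mki67 at -2.54 and Plk1 at 1.78.

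Of 13 targets of p53, 6 were called higher and 1 lower, with Bbc3 (Puma, a promoter of cell death) at 0.0671 to 0.172 and 5.54 to 131 CPM and Gdf15, a stress hormone, at 2.28 to 3.49 and 163 to 1236 CPM. The log2 fold changes of Bbc3 and Gdf15 were 8.67 (SE 1.27) and 7.46 (SE 0.98), and 2.39 and 2.72 with the GC offset, where 5 of the 13 were higher and 1 lower. Of 10 heat shock genes 6 were called lower, Hspa8 at -3.80 (SE 0.67) (-3.34 with the offset), and 3 higher. Of the 16 genes of endoplasmic reticulum stress 4 were called in each direction, near the shares of all genes, with Trib3 and Chac1 higher by 5.91 (SE 0.82) and 6.33 (SE 0.89) and by 2.94 and 3.54 with the offset. Glycolysis and hypoxia genes were called lower in 7 of 20 and higher in 2, Ldha being at -3.84 (SE 0.53). With the offset 10 were lower and 1 higher, Ldha at -4.17. Interferon response genes were called lower in 6 of 21 and higher in 2, sterol synthesis genes lower in 5 of 19 and higher in 4. The offset gave 6 lower and 1 higher interferon response genes, and 8 lower and 2 higher sterol synthesis genes. The 19 actin and serum response genes had 6 called higher, Tln1 (talin) at 4.92 (SE 0.72) among them, and 5 lower, near the shares of all genes. With the offset 5 were higher, Tln1 at 2.56, and 6 lower. Keratins and mesenchymal genes had 6 and 7 members with enough counts, of which 1 and 3 were called higher and 1 and 1 lower. With the offset 1 and 1 were called higher and 4 and 3 lower, and the medians went from 0.56 to -1.23 for keratins and from 1.84 to -1.14 for mesenchymal genes.

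**Figure D5:**
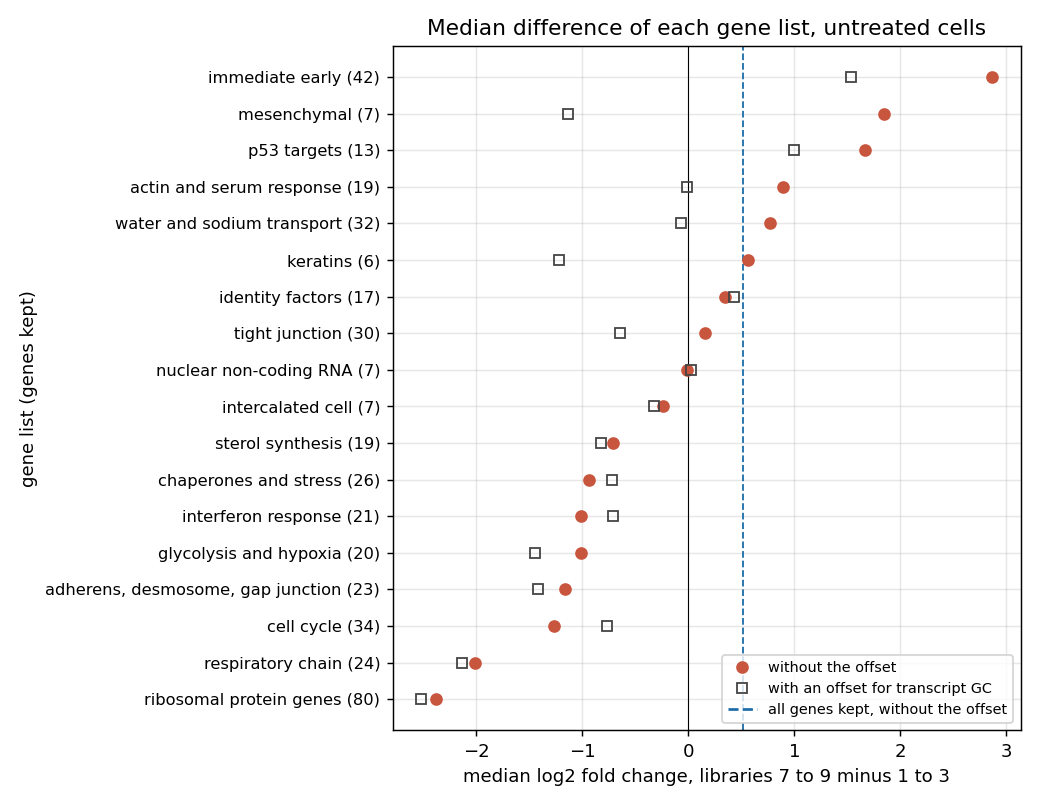
Median log2 fold change (libraries 7 to 9 minus 1 to 3) of each gene list with at least 6 genes kept, without (filled circles) and with the GC offset (open squares), with the median of all genes as a dashed line. Without the offset immediate early genes lie highest, at 2.86, and ribosomal protein genes lowest, at -2.38; histone genes are left out.

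Among called genes whose sets did not overlap and whose higher set averaged at least 10 CPM, the 10 largest log2 fold changes upward belonged to genes nearly silent in libraries 1 to 3. Nrp, Hist1h1e, Xrra1, Foxj1, Amn and Rasip1 had 0 counts there, so they passed the count filter through libraries 7 to 9 alone. Foxj1, the master factor of motile cilia (chromosome 11, 116330704 to 116335399), had 0, 0 and 0 CPM in libraries 1 to 3 against 1.97, 9.07 and 43.2 CPM in libraries 7 to 9 and was at least 317-fold higher against 3 counts over the set. Rasip1, an effector of Ras-family GTPases in endothelium, had 0, 0 and 0 CPM in libraries 1 to 3 against 18.03, 3.69 and 10.5 CPM in libraries 7 to 9 and was at least 188-fold higher. The bound was 531-fold for Nrp, 382-fold for Hist1h1e, 354-fold for Xrra1 and 189.6-fold for Amn, each on the same floor. Wnt6, a secreted Wnt ligand, had 3 counts in libraries 1 to 3 and 9155 in libraries 7 to 9, a ratio of 633-fold (exact binomial interval 216 to 3068, counting error only). With 1 count each in libraries 1 to 3, Nol3 and Hist1h4h had ratios of 721-fold (exact binomial interval 129 to 28500.4, counting error only) and 766-fold (exact binomial interval 137 to 30261, counting error only). The tenth gene, L3hypdh, a hydroxyproline dehydratase, was at 0 to 0.201 and 6.83 to 183 CPM. Library 9 was the highest of the set for 9 of the 10, and library 7 for Rasip1. Several of these values rest heavily on library 9: without it the log2 fold change fell from 13.12 to 8.52 for Hist1h1e, from 9.65 to 6.33 for L3hypdh, from 9.57 to 6.82 for Nol3, from 9.54 to 6.49 for Wnt6 and from 9.57 to 8.65 for Hist1h4h. It fell from 13.59 to 11.33 for Nrp, from 13.01 to 11.08 for Xrra1, from 12.85 to 11.02 for Foxj1 and from 12.11 to 9.98 for Amn. With the GC offset Amn (GC 62.9%) was not called, at 11.31 (SE 4.04), and Nrp had no GC value. The rest of the 10 stayed called higher, Wnt6 at 4.97 and Hist1h4h at 7.22. The fitted values of genes with 0 counts in libraries 1 to 3 depend on the prior count and are no bounds.

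By the same rule, the 10 largest downward differences were in transcripts of 38.6 to 48.1% GC, within bins 1 and 2, the lowest of the 5 GC bins. All were lower with the GC offset. Tspan8, a membrane tetraspanin (chromosome 10, 115816832 to 115849893), had 2916, 4023 and 3479 CPM in libraries 1 to 3 against 59.8, 5.79 and 20.0 CPM in libraries 7 to 9, a log2 fold change of -6.93 (SE 0.90) and -5.62 with the offset. Cd2ap, an adaptor between membrane proteins and actin, had 689, 764 and 643 CPM in libraries 1 to 3 against 22.7, 1.80 and 9.10 CPM in libraries 7 to 9 (-5.96, SE 0.90). Prdx1, an antioxidant enzyme, had 1434, 2637 and 1097 CPM in libraries 1 to 3 against 71.4, 6.35 and 23.4 CPM in libraries 7 to 9 (-5.68, SE 0.91). Pbrm1, a subunit of a chromatin remodelling complex, was at -6.57 (SE 0.90), Ly6a at -6.60 (SE 1.17) and the zinc finger gene Zfp871 at -7.01 (SE 0.76). Cldn8, described above, was among the 10, and the others were Rtp4, Fam49b and Dennd1b, at -5.79, -5.66 and -5.49.

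Single libraries of the set 7 to 9 weighed on many values. Of the 122 called genes that were refitted without each library, 33 moved by over 1.5-fold without library 9, 27 without library 7, 21 without library 8 and 4 to 7 without one of libraries 1 to 3. Library 7 lay nearest to libraries 1 to 3 for many of the lower genes: without it Wnk1 was at -5.69, Tjp1 at -4.14, Nedd4 at -5.48, Cdh1 at -5.38, Cldn8 at -6.94, Vcl at -5.26 and Tspan8 at -8.19. Library 9 was highest for many of the higher ones: without it Ier2 was at 5.18, Rhob at 2.75, Gadd45b at 3.44, Cldn23 at 4.03, Tjp3 at 3.92, Bbc3 at 6.80 and Gdf15 at 5.76. Library 8 was the highest for Evpl and Pkp3, at 3.77 and 3.60 without it. Calls were lost for 23 of the 122 genes in at least 1 of these fits, mostly on leaving out a library of the first set. Without library 1, 2 or 3 the numbers lost were 18, 19 and 19, and without library 7, 8 or 9 they were 1, 5 and 8. Scnn1a, Pax8, Elf3, F11r, Bsnd, Atp1b3 and Fxyd5 lost theirs only without one of libraries 1 to 3. Tjp1 and Dsg2 lost theirs also without library 9.

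The dDAVP libraries of the same numbers, which share no library with the untreated ones, gave 3312 of 10568 genes higher (31.3%) and 1923 lower (18.2%) in libraries 7 to 9. They too were among the values from which the sets were chosen, so they are no independent check. Of 5164 genes called in untreated cells and kept in dDAVP cells, 5105 (98.9%) had the same sign, 3956 (76.6%) were called the same way and 2 the opposite way. Over all 10079 genes kept in both, called or not, 8785 (87.2%) had the same sign. Cdh1, Cldn8 and Atp1b1 had log2 fold changes of -3.77, -5.68 and -4.93 there, and Junb, Jund and Ier2 of 6.35, 3.23 and 3.33. Scnn1a was at 2.43. Aqp2 was at -1.02 (SE 0.92) with dDAVP against 2.03 (SE 0.91) without, called in neither, and Aqp5 at -0.65 against 3.39. Scaled over all 18 libraries, Aqp2 had 2764, 179 and 190 CPM in dDAVP libraries 7 to 9. In an edgeR fit of the difference between the 2 comparisons, 0 of 11204 genes had an adjusted p under 0.05, the lowest being 0.604. With 3 libraries in each group, this does not show that the comparisons were alike.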

How the data were processed

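RNA of mpkCCD11 cells (20 ng per library, 50 bp single-end reads, per the labels' protocols) was aligned with STAR 2.4.0.1 and counted with HTSeq on mm10, per the submitters' processing notes. SAMtools is named there too. The strand setting and annotation release are not given in the sources used here, so overlapping and antisense genes are uncertain. The authors deposited raw counts per gene and library, and FPKM scaled by a fixed length per gene, which gave the lengths used here. Of 24111 count rows, 27 symbols had been turned into dates by spreadsheet software and stay as such. Gene positions and transcript GC came from GENCODE M21 (GRCm38).

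The counts were fitted with edgeR 4.0.16 (R 4.3.3), with TMM, filterByExpr and quasi-likelihood tests with Benjamini-Hochberg adjustment, two-sided, on the 6 untreated libraries without covariates. Alternatives used limma 3.58.1 and DESeq2 1.42.0, other scalings and filters, all 18 libraries, the FPKM values and each library left out. The FPKM values were logged after adding a constant and fitted with limma without TMM. The stricter filter asked for counts in every library. Offsets for GC and length were added after seeing the data. Figures used Python 3.11.15 and matplotlib 3.10.9. Libraries of a set differed beyond sampling noise (lowest chi-square per degree of freedom 65.9), so none was counted as a copy. Intervals and the limit of 3 counts cover counting error alone: PCR copies of a molecule were not marked, so reads are not independent.

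The sets, the gene lists and the rule for naming genes were chosen with earlier results of these data known. The rule named fixed transport, immediate early and junction genes, up to 4 called members of a list with the largest change, and the 10 largest changes each way among called genes whose sets do not overlap and whose higher set averages at least 10 CPM. Predicted genes, RIKEN clones, small RNAs and ribosomal protein pseudogenes were left out. Other list members named were chosen after their values were seen. Some members of the lists are counted but not reported by name here.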

Additional observations from a re-analysis of the deposited data

How the results depend on the processing

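The GC and length offsets were added after seeing the data. The 3403 genes called higher numbered 2049 to 3946 with 1 library left out (2049 without library 2, 2227 without library 3) and 2220 with the GC offset. The 1930 called lower numbered 1265 to 2973 (1265 without library 2, 2973 without library 7), 665 with library totals, 768 with totals without the most abundant genes and 810 with FPKM values. The 2639 lower genes with sets apart numbered 1051, 1299 and 939 in those 3 settings. In the last 2, 84.6% and 82.9% of calls were higher. List medians minus that of all genes were, first in the main scaling, then as a range with 1 library left out: transport 0.26, 0.0045 to 0.46; intercalated cell genes -0.76, -1.21 to -0.33; identity factors -0.17, -1.10 (without library 9) to 0.32; immediate early 2.35, 2.10 to 2.72; tight junction -0.36, -0.76 to -0.24; adherens, desmosome and gap junction -1.68, -1.77 to -1.29. With a stricter filter they were 0.70 for transport, -1.35 for intercalated, 1.50 for immediate early, 0.11 for tight junction and -1.44 for adherens genes. With FPKM values they were -0.13 for intercalated, 0.35 for identity, 0.88 for immediate early, 0.11 for tight junction and -1.13 for adherens genes. The GC offset gave -0.28 for transport, -0.53 for intercalated, 1.33 for immediate early and -0.85 for tight junction genes, and the length offset -1.15 for intercalated genes. The 10 of 140 genes that turned under the GC offset were Cldn3 (-1.74), Cldn4 (-0.73), Col4a2 (-1.14), Egfl7 (-0.39), Hspb1 (-0.27), Scnn1a (-0.28), Aqp5 (-0.45), Trpv4 (-1.24), Jup (-1.37) and Jund (-0.081), and no called gene of the 140 turned under another setting. Of 2344 values of these genes under the alternatives, 1858 moved by less than their standard error and 476 by more in the same direction or without a call. Beyond the GC offset's own construction, the cause was not tested. No paired analysis was possible because the 2 sets share no replicate number. A count of 0 allows up to 0.148 to 0.201 normalised CPM in libraries 1 to 3.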
